A study of Homo sapiens with 9 samples.

Results

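The genes described here are 8 early response genes, IER2, IER3, IER5, BTG1, BTG2, GADD45A, GADD45B and MCL1. They were chosen by name from the IER (immediate early response), BTG (B-cell translocation gene) and GADD45 (growth arrest and DNA damage) families, together with MCL1. The choice was made with earlier results of these data known. It left out IER5L, BTG3, BTG4 and GADD45G, which are described below as relatives. The 8 members are among the 60664 genes listed in the count tables. All 8 passed the count filter, which left 18264 genes for testing. RNA-seq was carried out on MDA-MB-231 cells, an established human triple-negative breast cancer line, in 3 groups of 3 samples, all collected on day 6. The SC 0.77 cP group was labelled WT with scramble RNA and was kept in medium of 0.77 cP, the viscosity of medium with no thickener. The SC 8 cP group carried the same scramble control and was kept at 8 cP, a viscosity set with methylcellulose, and the shTRPV4 8 cP group carried a short hairpin RNA against TRPV4, a calcium-permeable cation channel, and was also kept at 8 cP. Both the scramble and the shTRPV4 cells were stable lines made from MDA-MB-231 with a puromycin-selected lentiviral vector, so every group carries an integrated hairpin construct. There was no shTRPV4 group at 0.77 cP, so knockdown and viscosity cannot be told apart where the knockdown cells are set against the thin medium.

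TRPV4 had 40, 28 and 54 counts in SC 0.77 cP replicates 1 to 3, 64, 45 and 24 in SC 8 cP, and 7, 1 and 13 in shTRPV4 8 cP (log2 fold change of shTRPV4 against SC at 8 cP −2.51, SE 0.49, adjusted p = 0.00153 by edgeR's quasi-likelihood test). Libraries held 64571681 to 103518036 counts. The 7 markers expected in this line (VIM, CD44, KRT18, KRT8, EGFR, AXL and CAV1) averaged 227 to 1261 CPM (counts-per-million), ESR1, PGR and CDH1 did not pass the count filter, and ERBB2 was present at 94.0 CPM. Markers of other cell types (PTPRC, CD3E, PECAM1 and ALB) summed to 4.10 to 6.33 CPM in SC 0.77 cP, 2.65 to 3.16 in SC 8 cP and 2.10 to 2.62 in shTRPV4 8 cP. CD3E and ALB did not pass the filter. PECAM1 was lower at 8 cP (log2 fold change −0.86, adjusted p = 0.00118 by edgeR), so this sum moves with viscosity, as most of the 8 members do. Its part in the results was not tested. Nothing in the labels says that replicates came from separate cultures, so p-values measure the spread between these samples, which may be technical.

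Immediate early genes are transcribed within minutes of a growth factor, calcium or stress signal, without new protein synthesis, and their mRNAs are usually short-lived. IER2 is a nuclear protein linked to cell motility, IER3 (IEX-1) modulates survival and ERK signalling, and IER5 takes part in the heat shock response through HSF1 and the phosphatase PP2A. BTG1 and BTG2 are antiproliferative proteins that bring the CCR4-NOT deadenylase to mRNAs, GADD45A and GADD45B are stress sensors that bind MAP3K4, PCNA and the CDK1-cyclin B1 complex, and MCL1 is a short-lived antiapoptotic member of the BCL-2 family.

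To show which response elements known for early response genes they hold, the 250 bases upstream of the RefSeq start of 4 members are printed, in RefSeq sequence of GRCh38.p14. Of the 8 members, 5 matched an entry in the promoter table (IER2, IER5, BTG1, BTG2 and GADD45B). The RefSeq start differs from the GENCODE gene start given below for BTG2 and GADD45B, so the last 28 and 5 bases of their windows lie inside the GENCODE gene. Capitals mark matches, on either strand, to the core of the cyclic AMP response element (CRE), the EGR site, the TATA box, the CCAAT box, the E-box and the NF-kappaB site. Motif letters follow the sequences, except for the NF-kappaB site, which allows several bases at some positions and is shown by its matches.
IER2, chr19:13150161-13150410, plus strand: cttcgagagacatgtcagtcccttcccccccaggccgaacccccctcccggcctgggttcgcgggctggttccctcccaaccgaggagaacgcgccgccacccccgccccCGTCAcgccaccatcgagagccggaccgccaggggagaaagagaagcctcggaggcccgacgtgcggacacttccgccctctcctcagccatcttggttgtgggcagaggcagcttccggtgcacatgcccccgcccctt
BTG1, chr12:92145847-92146096, minus strand: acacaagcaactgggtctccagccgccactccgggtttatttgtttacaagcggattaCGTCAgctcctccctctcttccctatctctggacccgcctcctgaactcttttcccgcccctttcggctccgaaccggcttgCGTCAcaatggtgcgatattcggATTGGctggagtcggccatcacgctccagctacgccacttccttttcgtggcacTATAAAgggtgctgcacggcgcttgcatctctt
BTG2, chr1:203305269-203305518, plus strand: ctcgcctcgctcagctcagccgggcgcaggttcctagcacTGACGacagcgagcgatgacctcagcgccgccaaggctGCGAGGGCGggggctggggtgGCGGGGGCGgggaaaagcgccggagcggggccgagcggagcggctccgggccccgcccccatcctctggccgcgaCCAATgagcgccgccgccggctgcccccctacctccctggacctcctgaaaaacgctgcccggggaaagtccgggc
GADD45B, chr19:2475877-2476126, plus strand: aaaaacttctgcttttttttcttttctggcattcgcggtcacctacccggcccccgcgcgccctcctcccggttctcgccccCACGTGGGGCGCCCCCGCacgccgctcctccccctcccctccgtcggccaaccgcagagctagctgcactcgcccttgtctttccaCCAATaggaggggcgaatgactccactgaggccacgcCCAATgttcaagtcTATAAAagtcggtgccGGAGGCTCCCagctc

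The CRE core, TGACG, was in 3 of the 5 promoters (IER2, BTG1 and BTG2), against 28.8% of the 12108 promoters of tested genes. In IER2 it lay 140 to 136 bases upstream of the start, and BTG1 held a pair, 192 to 188 and 110 to 106 bases upstream. The EGR site, GCGNGGGCG, was in 2 of 5 (BTG2 and GADD45B, against 13.4% of all promoters). The TATA box, searched only as TATAAA, was in 2 (BTG1 and GADD45B, against 5.85%), and lay 33 to 28 bases upstream in BTG1 and 31 to 26 in GADD45B. Variants of it were not searched. The window of IER5, not printed, holds TATATAAG, so a TATA box in IER5 is not excluded. CCAAT was in 4 (all but IER2, against 34.6%). The E-box CACGTG (8.61%) and the NF-kappaB site (11.8%) were in 1, GADD45B. In GADD45B an NF-kappaB match at 163 to 154 bases upstream (GGGGCGCCCC) overlaps with the E-box at 168 to 163 and with the EGR match at 159 to 151, and another NF-kappaB match (GGAGGCTCCC) lies 15 to 6 bases upstream. The full CRE TGACGTCA (2.75% of all promoters), the AP-1 site TGANTCA (4.36%), the CArG box (0.999%) and the TEAD sequence GGAATG (9.64%) matched none of the 5 windows. CCGGAA, the ETS core, was in IER2 and IER5 (23.8%). These are letter matches in short windows, and no binding was measured here.

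The members were small genes. Their spans ran from 1350 to 18844 bases with a median of 4156.5, against 33307 for 13645 tested protein-coding genes, and they had a median of 2 exons (1 to 4) against 9. The exon annotation is GENCODE 44 on GRCh38. IER2 (ENSG00000160888) is on chr19:13150411-13154911, plus strand, IER3 (ENSG00000137331) on chr6:30743199-30744548, minus strand, and IER5 (ENSG00000162783) on chr1:181088700-181092900, plus strand, with 1 exon. BTG1 (ENSG00000133639) is on chr12:92140278-92145846, minus strand, and BTG2 (ENSG00000159388) on chr1:203305491-203309602, plus strand. GADD45A (ENSG00000116717) is on chr1:67685201-67688334 and GADD45B (ENSG00000099860) on chr19:2476122-2478259, both on the plus strand, and MCL1 (ENSG00000143384) is on chr1:150560895-150579738, minus strand. IER5, BTG2, GADD45A and GADD45B share no exon bases with another gene. Transcripts of the opposite strand cover 1608 of the exon bases of IER2, IER3 shares 525 with HCG20 and IER3-AS1, BTG1 shares 503 with LINC01619 on its own strand, and MCL1 shares 328 with ADAMTSL4-AS1 on its own strand. The kit keeps strand, but the strand setting of the counting is not given in the sources used here, so the values of these 4 genes are uncertain to the extent that such reads were counted or dropped.

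The first comparison asked how SC cells changed after 6 days at 8 cP instead of 0.77 cP. Of the 8 members, 6 fell (IER2, IER3, IER5, BTG1, GADD45A and MCL1), none rose, and BTG2 and GADD45B did not pass an adjusted p of 0.05. Over all genes tested, 9.60% were lower and 9.71% higher in this comparison. The median log2 fold change of the members was −0.43, against −0.0065 over all genes tested. In 7 of the 8 genes every SC 8 cP sample was below every SC 0.77 cP sample, which held in that direction for 19.0% of all genes tested. In a fit of the 6 SC samples alone with a replicate block, added after seeing the data, 7 members and 5955 genes passed. The main fit of all 9 samples, without a block, gave 6 members and 3527 genes. These fits differ in the samples used as well as in the block, so the difference cannot be credited to the block. In bulk RNA, fewer cells that express a gene and less RNA per cell cannot be told apart.

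IER2 and IER3 showed the largest falls of the 8. IER2 was at 108, 116 and 111 CPM (here and below with library totals scaled by the TMM method) in SC 0.77 cP replicates 1 to 3 and at 53.2, 51.7 and 49.9 in SC 8 cP. The mean went from 112 ± 3.69 (SD, n = 3) to 51.6 ± 1.65 CPM, far outside the spread of either group. IER2 thus fell by 53.7% (log2 fold change −1.11, SE 0.059, adjusted p = 7.2e-10 by edgeR), and ranked 333 from the largest fall among 18264 genes. IER3 was at 384, 416 and 360 CPM in SC 0.77 cP and at 212, 213 and 204 CPM in SC 8 cP, with no overlap (log2 fold change −0.88, SE 0.055, adjusted p = 6.0e-09 by edgeR). IER5, the member with a single exon, fell less. Its level was 339, 362 and 329 CPM in SC 0.77 cP and 267, 266 and 254 in SC 8 cP (log2 fold change −0.39, SE 0.046, adjusted p = 3.4e-05 by edgeR), so the lowest SC 0.77 cP sample still lay above the highest SC 8 cP sample.

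**Figure D1:**
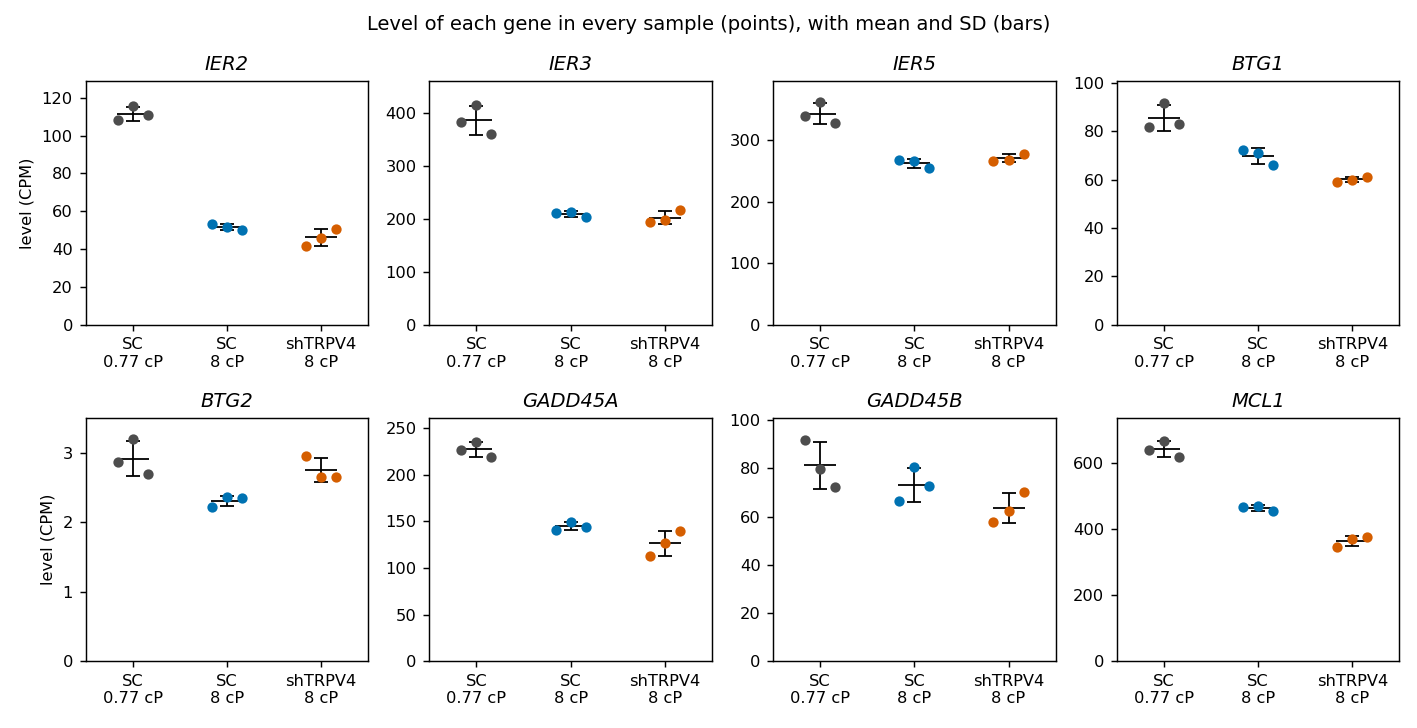
Level of each of the 8 genes in CPM (vertical axes, each from 0 and on its own scale) in the 3 samples of each group, with points for samples and bars for the mean and SD. For IER2 the SC 0.77 cP samples lie between 108 and 116 CPM and all samples at 8 cP between 41.9 and 53.2, and for GADD45B the SC 8 cP samples overlap with both other groups.

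The BTG genes lay at the small end. BTG1 was at 81.6, 91.7 and 83.2 CPM in SC 0.77 cP and at 72.4, 71.1 and 66.0 in SC 8 cP (log2 fold change −0.29, SE 0.052, adjusted p = 0.00153 by edgeR), the smallest fall among the members that passed. BTG2 was the least abundant member, at 2.86, 3.20 and 2.69 CPM in SC 0.77 cP and 2.22, 2.36 and 2.35 in SC 8 cP. These groups did not overlap, but the difference did not pass (log2 fold change −0.33, SE 0.12, 95% interval −0.58 to −0.086, adjusted p = 0.0541 by edgeR). It was close to the threshold, and passed in 3 of 16 alternative analyses (adjusted p = 0.0460 without SC 0.77 cP replicate 3). A block by replicate number in the 6 SC samples was added after seeing that their same-numbered samples correlated at 0.119 to 0.399. With it BTG2 passed (log2 fold change −0.34, SE 0.12, adjusted p = 0.0317 by edgeR). Since the block was chosen from the same counts, this pass gives no independent support. BTG2 did not pass with the block over all 9 samples (adjusted p = 0.0655 by edgeR). GADD45A was at 227, 235 and 219 CPM in SC 0.77 cP and 141, 149 and 144 in SC 8 cP, with no overlap (log2 fold change −0.65, SE 0.062, adjusted p = 3.2e-06 by edgeR). GADD45B, its closest relative here, was at 91.8, 79.7 and 72.2 CPM in SC 0.77 cP and 66.3, 80.4 and 72.8 in SC 8 cP. Its groups overlapped (log2 fold change −0.15, 95% interval −0.38 to 0.075, adjusted p = 0.338 by edgeR), so a fall of a size like that of BTG1 is not excluded by these samples. MCL1 was the most abundant member in CPM, at 640.0, 666 and 618 in SC 0.77 cP and 467, 470 and 454 in SC 8 cP (log2 fold change −0.47, SE 0.046, adjusted p = 2.9e-06 by edgeR).

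The second comparison asked how these genes differed between the shTRPV4 and the scramble cells at 8 cP. Other effects of the hairpin, or differences between the separately made lines, cannot be told apart here from loss of TRPV4. Of the 8 members, 3 were lower in shTRPV4 cells (BTG1, GADD45A and MCL1), none was higher, and 5 did not pass. Over all genes tested, 11.0% were lower and 9.07% higher. The median log2 fold change of the members was −0.18, against 0.00064 over all genes. In 3 members every shTRPV4 sample was below every SC 8 cP sample (18.8% of all genes), and in 1, BTG2, every one was above (17.6%). The first 2 comparisons share the SC 8 cP samples, so a chance high or low value there enters both with opposite sign, and their values are given side by side only. The share of counts from mitochondrially encoded genes was 2.26 to 2.39% in the shTRPV4 samples, against 1.40 to 1.62% in SC 8 cP and 1.30 to 1.75% in SC 0.77 cP, and 12 of the 13 mitochondrially encoded genes, all but MT-ND3, were higher with the knockdown. The part of this shift in the values below was not tested.

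MCL1 showed the largest of these 3 falls. It was at 467, 470 and 454 CPM in SC 8 cP and at 346, 370 and 375 in shTRPV4 8 cP, with no overlap (log2 fold change −0.35, SE 0.046, adjusted p = 4.1e-05 by edgeR). BTG1 was at 59.1, 60.0 and 61.2 CPM in the shTRPV4 samples, below all 3 SC 8 cP samples (log2 fold change −0.22, SE 0.052, adjusted p = 0.00702 by edgeR). GADD45A was at 113, 127 and 140 CPM in shTRPV4 8 cP against 141, 149 and 144 in SC 8 cP (log2 fold change −0.19, SE 0.062, adjusted p = 0.0349 by edgeR). The groups only just separated, at 140 CPM in shTRPV4 replicate 3 and 141 CPM in SC 8 cP replicate 1. The call for GADD45A held in 10 of 16 alternatives, and was lost without SC 8 cP replicate 1 (adjusted p = 0.0680), 2 (0.132) or 3 (0.0751), without shTRPV4 replicate 1 (log2 fold change −0.12, adjusted p = 0.124) or 2 (0.0891), and with the 6 samples alone (0.0526).

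The IER genes did not pass with the knockdown. IER2 was at 41.9, 45.9 and 50.8 CPM in shTRPV4 8 cP, overlapping with SC 8 cP (log2 fold change −0.16, 95% interval −0.29 to −0.035, adjusted p = 0.0670 by edgeR), and it did pass without shTRPV4 replicate 3 (adjusted p = 0.00830). IER3 was at 195, 197 and 217 CPM (log2 fold change −0.047, 95% interval −0.16 to 0.067, adjusted p = 0.598 by edgeR). IER5 was at 266, 268 and 279 CPM (log2 fold change 0.045, 95% interval −0.051 to 0.14, adjusted p = 0.544 by edgeR). For IER3 and IER5 the intervals exclude changes as large as their falls with viscosity. BTG2 was at 2.95, 2.66 and 2.65 CPM, above the 2.22 to 2.36 of SC 8 cP, and did not pass (log2 fold change 0.25, 95% interval 0.0086 to 0.50, adjusted p = 0.141 by edgeR). GADD45B was at 57.9, 62.5 and 70.4 CPM (log2 fold change −0.20, 95% interval −0.43 to 0.024, adjusted p = 0.205 by edgeR).

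**Figure D2:**
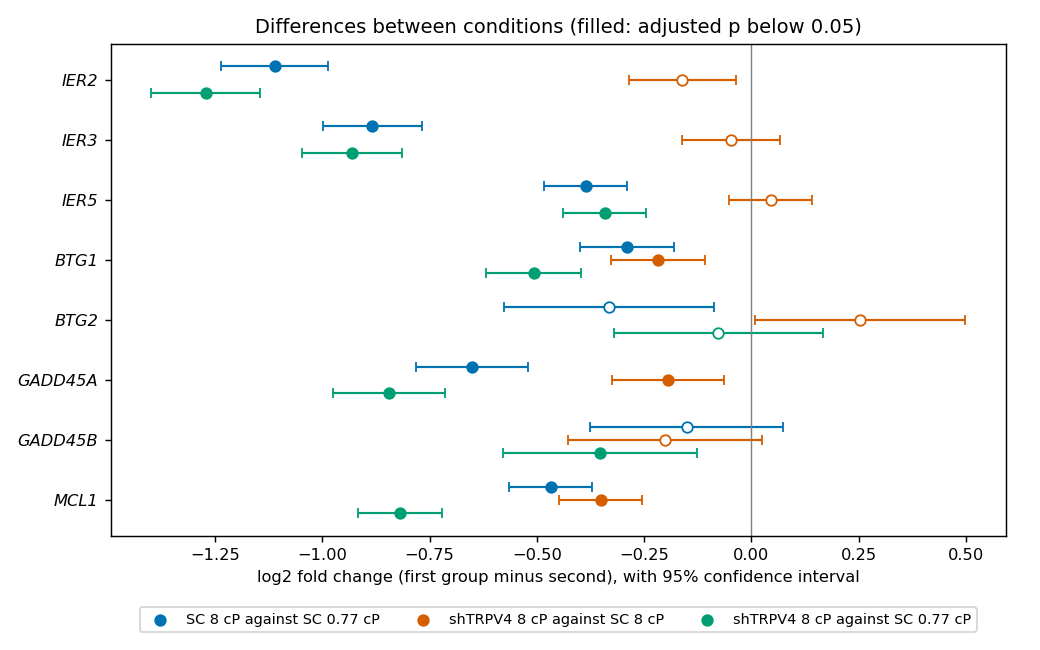
Log2 fold change of each gene (horizontal axis, points) with its 95% confidence interval (lines) in the 3 comparisons, filled where the adjusted p is below 0.05. IER2 and IER3 lie at −1.11 and −0.88 for viscosity and near −0.16 and −0.047 for the knockdown, whereas MCL1 lies at −0.47 and −0.35.

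The third comparison set the knockdown cells in thick medium against the scramble cells in thin medium, and shares a group with each of the others. Here 7 members were lower and BTG2 did not pass (log2 fold change −0.077, 95% interval −0.32 to 0.17, adjusted p = 0.631 by edgeR). Over all genes tested, 21.9% were lower and 20.4% higher, and the median of the members was −0.66 against −0.011. The 7 genes also showed no overlap between groups (26.1% of all genes in that direction). IER2 was lowest (log2 fold change −1.27, SE 0.060, adjusted p = 7.6e-11 by edgeR), followed by IER3 (−0.93), GADD45A (−0.85), MCL1 (−0.82), BTG1 (−0.51), GADD45B (−0.35) and IER5 (−0.34). GADD45B passed here alone among the comparisons (SE 0.10, adjusted p = 0.0175 by edgeR). That call was lost without shTRPV4 replicate 1 (log2 fold change −0.29, adjusted p = 0.0911).

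To compare levels between genes, counts were divided by the exon length (RPKM, the CPM for each kilobase of exon). In SC 0.77 cP the order was IER3 (286 ± 20.6 RPKM, n = 3), GADD45A (118), MCL1 (103), IER5 (81.7), GADD45B (38.0), IER2 (36.2), BTG1 (17.6) and BTG2 (1.06). Of neighbours in that order, only GADD45B and IER2 overlapped between samples. In SC 8 cP the order was IER3 (155 RPKM), GADD45A (75.1), MCL1 (74.5), IER5 (62.5), GADD45B (34.2), IER2 (16.8), BTG1 (14.4) and BTG2 (0.838), and GADD45A and MCL1 overlapped. IER2 thus went from a level that overlapped with GADD45B to one below it in every sample. In shTRPV4 8 cP IER5 (64.5 RPKM) came above MCL1 (58.4) and overlapped with GADD45A (65.7), with IER3 at 150.

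Shares among the members of each family, and of MCL1 among antiapoptotic genes, followed from these unequal changes. The relatives IER5L, BTG3, BTG4 and GADD45G are left out of these shares. IER2 made up 8.98 ± 0.401% of the summed RPKM of the 3 IER members in SC 0.77 cP, 7.15 ± 0.113% in SC 8 cP and 6.52 ± 0.330% in shTRPV4 8 cP. GADD45A made up 75.7 ± 2.10% of the 2 GADD45 members in SC 0.77 cP, 68.8 ± 1.48% in SC 8 cP and 68.8 ± 0.42% in shTRPV4 8 cP. BTG2 made up 5.67 ± 0.236%, 5.51 ± 0.377% and 7.47 ± 0.531% of the 2 BTG members. BTG3, at 19.32, 20.05 and 19.03 RPKM in the same groups, was above BTG1 in each, so the share of BTG2 in the whole family is smaller. MCL1 made up 48.4, 49.3 and 46.4% of the summed RPKM of the antiapoptotic genes MCL1, BCL2L1, BCL2L2 and BCL2 in SC 0.77 cP, 40.9, 41.1 and 40.6% in SC 8 cP, and 35.4, 35.7 and 35.0% in shTRPV4 8 cP. Counts are per gene, so splice forms were not told apart. Of the 12 comparisons of shares between groups, 10 showed no overlap, with p = 0.1 each by a two-sided exact permutation test (adjusted 0.12), the smallest that 3 against 3 can give. The exceptions were GADD45A with the knockdown (exact permutation p = 0.9) and BTG2 with viscosity (exact permutation p = 0.7).

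**Figure D3:**
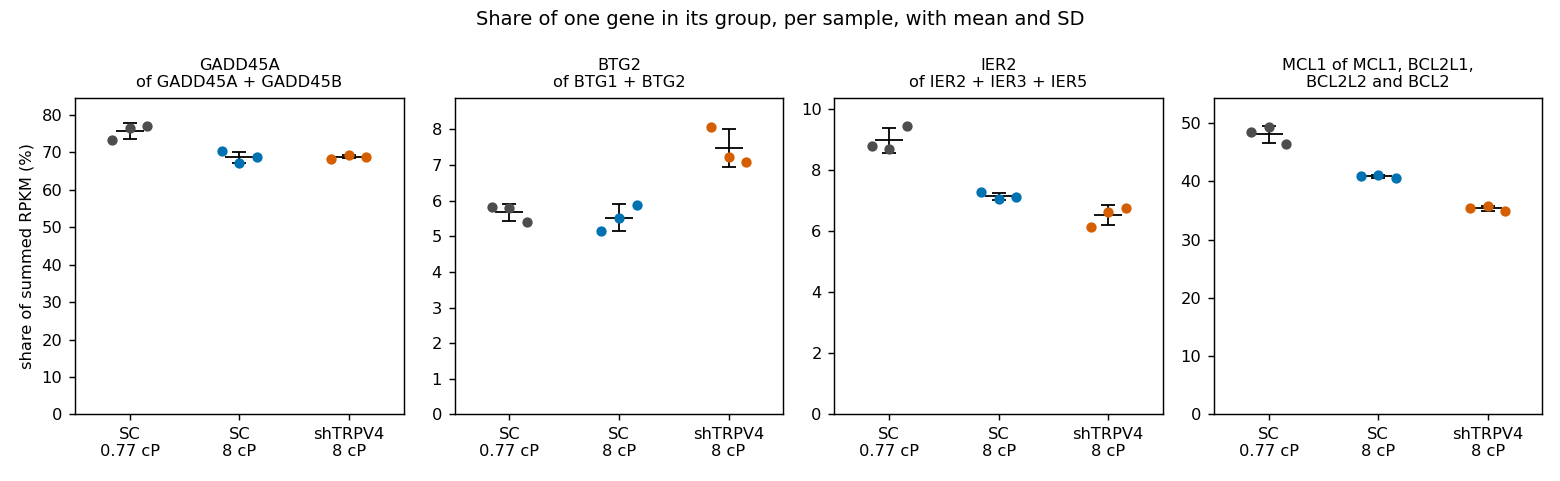
Share of 1 gene in the summed RPKM of its group (vertical axes, percent, from 0), for GADD45A, BTG2, IER2 and MCL1, with points for samples and bars for mean and SD. MCL1 steps down from 46.4 to 49.3% in SC 0.77 cP to 35.0 to 35.7% in shTRPV4 8 cP.

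None of the other 3 antiapoptotic genes passed with viscosity or with the knockdown. BCL2L1, which encodes BCL-XL, had 103.6, 99.7 and 98.0 RPKM on average in SC 0.77 cP, SC 8 cP and shTRPV4 8 cP, so that MCL1 and BCL2L1 were near one level in SC 0.77 cP and apart in shTRPV4 8 cP. BCL2L1 shares 1735 exon bases with ABALON on the other strand. BCL2L2 (7.16, 7.45 and 8.07 RPKM) and BCL2 (0.572, 0.689 and 0.675) were far lower. Of the BCL-2 family list, 13 of 15 genes were tested, BCL2A1 and HRK having failed the filter. Over all genes tested, 9.60% were lower and 9.71% higher with viscosity, and 11.0% lower and 9.07% higher with the knockdown. With viscosity 1 of the 13 fell, PMAIP1, whose product NOXA binds MCL1 (log2 fold change −0.37, SE 0.078, adjusted p = 0.00702 by edgeR), and none rose (median −0.16). With the knockdown PMAIP1 fell (−0.59, adjusted p = 0.000205 by edgeR), and BMF (0.47) and BCL2L11, which encodes BIM (0.22), rose. Of 6 genes of MCL1 protein turnover, GSK3A rose with viscosity (0.15), and with the knockdown GSK3A rose (0.16) and FBXW7, an E3 ligase subunit that targets MCL1, fell (−0.21).

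The closest relatives of the members were IER5L, BTG3, BTG4, TOB1, TOB2 and GADD45G. With viscosity 3 of 6 fell and none rose (median log2 fold change −0.32), beside 9.60% lower and 9.71% higher over all genes tested. These were the BTG-like antiproliferative genes TOB1 (−0.31, SE 0.079, adjusted p = 0.0122 by edgeR) and TOB2 (−0.32, SE 0.051, adjusted p = 0.000598 by edgeR), and GADD45G, which went from 1.51 to 0.871 CPM (−0.79, SE 0.20, adjusted p = 0.0109 by edgeR). BTG3 did not pass (0.053), nor did IER5L (−0.26, adjusted p = 0.0874 by edgeR), or BTG4, which was barely detected. With the knockdown only IER5L passed, going from 20.3 to 11.6 CPM (−0.81, SE 0.10, adjusted p = 0.000109 by edgeR). IER5 itself did not pass there. The median of the 6 was −0.076.

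Genes that work with the members are set beside the shares of all genes given above for each comparison. These were 9.71% higher and 9.60% lower with viscosity, and 9.07% higher and 11.0% lower with the knockdown. Of 14 genes of the CCR4-NOT complex and deadenylation, the machinery that BTG proteins recruit, 1 rose (CNOT7, 0.14) and 1 fell (PAN3, −0.16) with viscosity (median 0.079), and 1 rose (CNOT11, 0.18) with the knockdown (median 0.025). Among 6 regulators of AU-rich element mRNA decay, which shortens the life of early response mRNAs, ZFP36 fell with viscosity from 55.2 to 16.4 CPM (log2 fold change −1.75, SE 0.061, adjusted p = 1.3e-12 by edgeR). That exceeded the fall of any of the 8 members. ZFP36, itself an early response gene, was lower again with the knockdown (−0.29, adjusted p = 0.00335 by edgeR). ELAVL1, which stabilises such mRNAs, rose with viscosity (0.18), and the median of the list was 0.030.

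Of 9 GADD45 partners, PCNA (0.27) and CCNB1 (0.19) rose with viscosity and CDKN1A, the CDK inhibitor p21, fell (−0.48, SE 0.043, adjusted p = 8.9e-07 by edgeR). The mean level of CDKN1A was 216 CPM in SC 0.77 cP, 155 in SC 8 cP and 117 in shTRPV4 8 cP. With the knockdown CDKN1A fell (−0.41) and MAP2K6, a kinase upstream of p38, fell from 1.71 to 0.579 CPM (−1.57, SE 0.24, adjusted p = 0.000216 by edgeR), whereas MAP2K3, which also acts on p38, rose (0.23). Among 5 IER5 partners, the PP2A catalytic subunit gene PPP2CA rose with viscosity (0.17) and HSF1 rose with the knockdown (0.18). Of 22 p53 target genes, a group that regulates cell cycle arrest and death as several members do, 1 rose and 4 fell with viscosity (median −0.061), with ZMAT3 (0.37) higher and CDKN1A and PLK2 (−0.40) lower. With the knockdown 1 rose and 7 fell (median −0.088), among them SESN2 (−0.39) and CCNG1 (−0.35), and PLK2 rose (0.27).

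**Figure D4:**
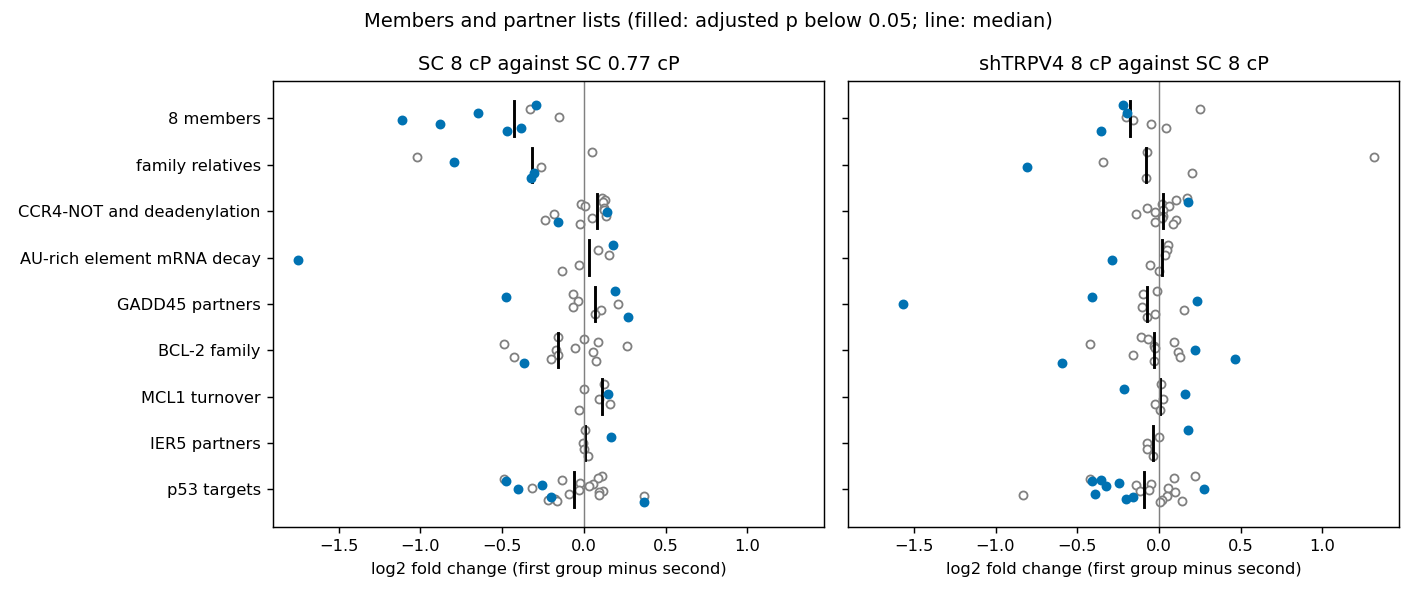
Log2 fold change (horizontal axes) of the 8 genes and of each list of relatives and partners, with viscosity (left) and with the knockdown (right), filled where the adjusted p is below 0.05 and with a line at the median. The 8 genes have medians of −0.43 and −0.18, and ZFP36 stands at −1.75 on the left.

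Genes with the most similar profile over the 9 samples were sought for each member that passed in either of the first 2 comparisons, by the root mean square (RMS) difference of centred log2 CPM among 12913 genes. The closest to IER2 were MYC (RMS difference 0.0437), SOX9 (0.0919) and HES4 (0.0952), all transcription factor genes. For MYC the log2 fold changes were −1.18 with viscosity and −0.12 with the knockdown, against −1.11 and −0.16 for IER2. CHMP1B (0.0658), MMP11 (0.0681) and NOCT (0.0846) were closest to IER3, and RNF215 (0.0414), SPTY2D1 (0.0430) and SIRT5 (0.0452) to IER5. For BTG1 they were ZMYM5 (0.0330), DNAJB2 (0.0355) and ISG15 (0.0405). GADD45A was nearest to the amino acid transporter gene SLC38A2 (0.0712), EDN1 (0.0731) and MAFF (0.0790), and MCL1 to the kinase gene PIM1 (0.0505), ARRDC2 (0.0524) and ERRFI1 (0.0536), a feedback inhibitor of EGFR. These are descriptions of likeness in level over 3 groups, with no test.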

How the data were processed

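Poly(A) RNA from 9 MDA-MB-231 samples was sequenced from strand-specific libraries. The authors aligned reads with HISAT2 2.2.1 to GRCh38.p13, counted exon reads per gene with HTSeq 0.13.5, and deposited raw counts for each sample (no normalisation), which were used as given. The labels also name SAMtools and DESeq. Gene names came from GENCODE 44 by Ensembl ID (60463 of 60664 matched). Counts were filtered by filterByExpr (18264 genes), scaled by TMM and tested by edgeR 4.0.16 (limma 3.58.1, R 4.3.3) with the robust quasi-likelihood test over all 9 samples, 1 coefficient per group, with Benjamini-Hochberg adjustment over all genes and a threshold of 0.05. The common biological coefficient of variation was 0.0633. Alternatives were DESeq2 1.42.0, other scalings and filters, 6 samples alone, a replicate block and leaving out each sample, whose effect the closing section gives. Deviations from group means of same-numbered samples correlated at 0.119 to 0.399 between SC 0.77 cP and SC 8 cP, where 5 of 6 samples matched their own number best. The numbers were therefore taken as pairs there in an added fit only, from the data and not the labels. The main test had no replicate block, so its viscosity values ignore any such pairing, which the labels do not state. With shTRPV4, same-numbered samples correlated at −0.242 to 0.149 (against SC 8 cP) and −0.231 to 0.1 (against SC 0.77 cP) and were not taken as pairs. CPM uses TMM-scaled totals, and RPKM divides it by the GENCODE exon length. Counts are fragments without molecular identifiers, so intervals cover the spread of these samples.

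Members, gene lists and the rule for named genes were chosen with earlier results of these data known. The rule named the 8 genes and their relatives, up to 3 passing genes of each list with the largest log2 fold change in either of the first 2 comparisons, and for each passing member the 3 most similar profiles (genes averaging 100 counts or more). The BCL-2 levels beside MCL1 were added after their values were seen. One marker of another cell type is not reported here.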

Additional observations from a re-analysis of the deposited data

How the results depend on the processing

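Of 384 values (8 genes, 3 comparisons, 16 alternatives), 371 kept their direction and side of the threshold, 7 no longer passed, 6 newly passed and 0 reversed. BTG2 passed with viscosity under upper quartile scaling (log2 fold change −0.34, adjusted p = 0.0492) and at least 10 counts in every sample (−0.33, adjusted p = 0.0487). With no filter on low counts 5 members passed with the knockdown, IER2 (−0.16, adjusted p = 0.0263) and GADD45B (−0.20, adjusted p = 0.00499) being added. In the main fit their log2 fold changes were also −0.16 and −0.20, with adjusted p = 0.0670 and 0.205 by edgeR. The added calls thus came with smaller adjusted p and not with larger changes. The share of all genes passing without the filter is not given here, so these 5 have no background to be set against. GADD45A did not pass with the knockdown when the 6 samples were fitted alone (−0.19, adjusted p = 0.0526). The cause was not tested. Leaving out each sample in turn gave −0.38 to −0.26 for BTG2 with viscosity, −0.27 to −0.12 for GADD45A and −0.24 to −0.095 for IER2 with the knockdown, and −0.43 to −0.25 for GADD45B in shTRPV4 8 cP against SC 0.77 cP. Members passing then numbered 6 to 7, 2 to 4 and 6 to 7 in the 3 comparisons. Genes passing ranged from 1448 (without SC 8 cP replicate 3) to 4399 with viscosity, against 3527, with 1476 without SC 0.77 cP replicate 1 and 1940 without replicate 2, from 2196 (without SC 8 cP replicate 2) to 3886 with the knockdown, against 3668, and from 6339 to 7715 in the third, against 7724. BTG2, at 205 to 277 counts a library, has the widest intervals.

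Replicate numbers have no stated meaning. With the replicate number as a block over all 9 samples, 6, 3 and 7 members and 3489, 3682 and 7756 genes passed in the 3 comparisons, and no member's call changed. A block within the 6 SC samples alone was added after seeing the data, since their same-numbered samples correlated. It gave 7 members and 5955 genes for viscosity. Beside the main fit of all 9 samples, BTG2 was added (−0.34, adjusted p = 0.0317 by edgeR) and no other member's call changed. With shTRPV4, where the samples share only a number, 1 of 6 samples correlated best with its own number against SC 8 cP and 0 of 6 against SC 0.77 cP. Over all groups, same-numbered samples correlated at −0.242 to 0.399 and samples with different numbers at −0.32 to 0.35, so these ranges overlap. The highest value between different numbers was for SC 0.77 cP replicate 3 with shTRPV4 replicate 1 (0.35).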
